A study of Mus musculus with 96 samples.

Results

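The genes described here are 10 regulators of apoptosis in mouse liver, the cell death program run through mitochondria and caspases: Bcl2, Bcl2l1, Mcl1, Bak1, Bid, Bcl2l11, Bik, Bmf, Xiap and Birc3. They were chosen by name from the BCL2 family and the inhibitors of apoptosis, with earlier results of these data known. All 10 were measured, out of 18193 genes on the array. They were covered by 40 probe sets, and each gene is given by its probe set of highest average signal. Liver RNA of CD-1 mice, an outbred stock, had been hybridised to 96 arrays, 1 per sample. The groups were male and female livers after 7 or 2 days of PB in the diet at 150, 75, 15, 1.5 or 0.15 mg/kg-day, and the dose 0 livers of the same sex and day. That makes 24 groups of 4 arrays. The labels do not expand PB (phenobarbital is the usual meaning in studies of the receptor CAR) and give no age of the animals. Doses are printed in mg/kg-day as the design has it, although the titles of the samples read ppm for the same numbers.

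In the mitochondrial pathway of apoptosis, guard proteins (Bcl2, Bcl2l1, which encodes BCL-xL, and Mcl1) hold the pore-forming effectors Bak1 and Bax in check. BH3-only proteins such as Bid, Bcl2l11 (BIM), Bik and Bmf sense stress and bind the guards, so that the effectors can open the outer mitochondrial membrane and release cytochrome c. Xiap blocks caspases directly, whereas Birc3 (cIAP2) is a ubiquitin ligase that acts in signalling from the TNF receptor to NF-kB. Hepatocytes depend on Mcl1 and Bcl2l1 for survival, and suppression of apoptosis has long been described in rodent liver under CAR activators.

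Values are log2 intensities as deposited, so a difference of 1 is a 2-fold change, and SDs are between the 4 arrays of a group. Array medians ran from 5.35 to 5.44, and arrays give no read depth, so the number of arrays limits the precision. The labels do not say that each array is a separate mouse, so p-values measure only the spread between these samples. A gene was called changed where its Benjamini-Hochberg adjusted p over all 18193 genes, from limma, was under 0.05. Cyp2b10 and Cyp2c55, cytochrome P450 enzymes, and the stress gene Gadd45b were higher at 150 mg/kg-day in both sexes on both days, and on every array labelled female Xist lay above its highest value on the arrays labelled male, 5.89. A pair of arrays stood apart, by the SD of their deviations from the group means over all genes: male dose 0 day 7 replicate 4 (0.229) and female 75 mg/kg-day day 7 replicate 3 (0.226), against a median of 0.169 over all arrays. Whole liver was measured, so fewer cells of a type and less RNA per cell cannot be told apart.

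At 150 mg/kg-day 3 of the 10 genes changed, each in 1 sex on 1 day. In day 7 livers 1 of 10 was called in males, Bak1, which was higher, against 3.04% of all genes called in either direction and 2.20% called higher, and 0 of 10 in females by limma, against 2.45%, where Bak1 and Birc3 had an unadjusted p under 0.05, as had 13.7% of all genes. In day 2 livers 1 of 10 was called in males, Xiap, which was lower, against 4.90% of all genes called and 2.40% called lower, and 1 of 10 in females, Bmf, which was lower, against 5.46% called and 2.14% called lower. A single call among 10 genes is close to these shares, so the calls speak for those genes one by one and not for the group. The median change of the 10 genes was 0.06 in males and 0.05 in females on day 7, and -0.08 in males and -0.14 in females on day 2, with medians over all genes between -0.03 and 0.00.

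**Figure D1:**
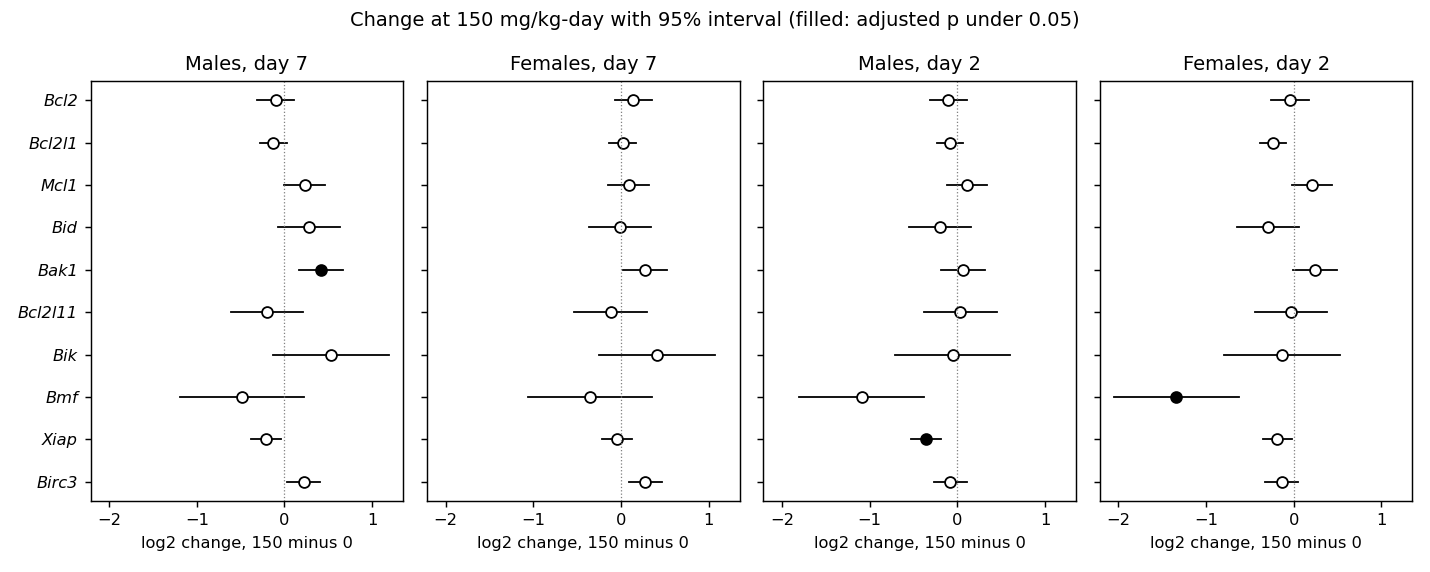
Log2 change of each of the 10 genes at 150 mg/kg-day minus dose 0, with its 95% interval, in 4 panels by sex and day (n = 4 arrays per group). Filled points are the 3 calls, Bak1 in males on day 7, Xiap in males on day 2 and Bmf in females on day 2; Bmf and Bik have the widest intervals.

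Bmf and Xiap were each called lower at 150 mg/kg-day in day 2 livers of 1 sex, by their probe sets of highest average signal. Of the 3 promoter windows of each gene, only the 1 that holds the nuclear receptor half-site AGGTCA is shown. The windows come from RefSeq on GRCm38.p6, 250 bases before to 50 after an annotated start. CAR is a nuclear receptor and receptors of this class bind such half-sites, which is why this motif was searched, on both strands. The capitals mark the match, and the Xiap window holds it as its reverse complement TGACCT. The Bmf window lies at chr2:118549637-118549936 on the minus strand, across the annotated start of the gene (chr2:118528757-118549686), and the Xiap window at chrX:42067586-42067885 on the plus strand, at a start inside the gene (chrX:42059613-42109664).
Bmf: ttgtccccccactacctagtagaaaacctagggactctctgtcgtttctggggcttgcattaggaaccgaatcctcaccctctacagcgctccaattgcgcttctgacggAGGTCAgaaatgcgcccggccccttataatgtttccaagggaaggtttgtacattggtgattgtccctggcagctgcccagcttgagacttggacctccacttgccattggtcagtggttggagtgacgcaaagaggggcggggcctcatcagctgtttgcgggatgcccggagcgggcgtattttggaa
Xiap: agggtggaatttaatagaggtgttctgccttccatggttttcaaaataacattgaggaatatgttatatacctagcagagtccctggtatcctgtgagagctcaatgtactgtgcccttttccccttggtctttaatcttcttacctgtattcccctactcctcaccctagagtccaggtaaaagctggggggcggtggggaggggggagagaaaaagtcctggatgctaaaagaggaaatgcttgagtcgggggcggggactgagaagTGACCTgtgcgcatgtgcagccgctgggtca
Of the 16 windows of the 9 genes matched in the table, 3 held the motif, 1 each in Bmf, Xiap and Bcl2l1, against 5340 of 32851 windows of all genes, or 16.3%. The match is a description of the letters in these windows and no evidence of binding.

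Among the guards, Bcl2l1 came closest to a call, in female livers on day 2. In female day 2 livers Bcl2l1 had 8.22, 8.25, 8.25 and 8.33 at 150 mg/kg-day, against 8.55, 8.47, 8.60 and 8.37 at dose 0. Every treated array lay below every dose 0 array, as was the case in 1 direction or the other for 10.1% of all genes in this comparison. The difference was -0.24 ± 0.08 (SE), with an adjusted p of 0.0520, just outside the threshold. It was called under 5 of 15 alternatives, among them the fits without dose 0 replicate 4 or treated replicate 4 and the fit without the arrays that stood apart. In male day 2 livers the Bcl2l1 groups overlapped, at 8.38 ± 0.11 with 150 mg/kg-day and 8.46 ± 0.20 at dose 0 (SD, n = 4 each).

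Mcl1, a short-lived guard whose loss kills hepatocytes in mice, had positive differences at 150 mg/kg-day in all 4 comparisons, between 0.09 and 0.23, none of them called. Those values belong to the brightest of its 6 probe sets: on day 2, 4 of the 6 had differences below 0 in each sex, and the next brightest differed by -0.24 in males and -0.19 in females, not called. In male day 7 livers Mcl1 had 10.30, 10.51, 10.32 and 10.27 at 150 mg/kg-day, against 9.97, 10.18, 10.19 and 10.13 at dose 0. The groups did not overlap, which 8.01% of all genes shared, yet the difference of 0.23 (95% interval -0.0021 to 0.46) had an adjusted p of 0.341. Bcl2, the founding guard of the family, differed by no more than 0.14 in either direction at 150 mg/kg-day, and its 4 pairs of groups all overlapped. Its largest interval bound at 150 mg/kg-day was 0.35, in female day 7 livers.

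The effector Bak1 was the 1 gene of the 10 called at 150 mg/kg-day against dose 0 within 1 sex on day 7. In male day 7 livers Bak1 had 6.39, 6.56, 6.44 and 6.38 at 150 mg/kg-day, against 6.30, 6.35, 6.05 and 5.39 at dose 0. All 4 treated arrays were above the dose 0 arrays, and 8.01% of all genes had groups without overlap in this comparison. The lowest value by far came from the dose 0 array that stood apart. The means were 6.44 ± 0.08 at 150 mg/kg-day and 6.02 ± 0.44 at dose 0 (SD, n = 4 each), a difference of 0.42 ± 0.13 (SE) or 1.34-fold higher (adjusted p = 0.0453). Without that array the difference was 0.21 (adjusted p = 0.456), so the male call rests on 1 dose 0 array. The call was held in 2 of the 8 fits that left out 1 array, those without dose 0 replicate 1 or 2, and lost without dose 0 replicate 3 or any of the 4 treated arrays. It was also lost with the mean of both Bak1 probe sets (0.23, adjusted p = 0.187) and in a fit of the compared groups alone (adjusted p = 0.388).

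In female day 7 livers Bak1 had 6.77, 6.95, 6.51 and 6.45 at 150 mg/kg-day, against 6.25, 6.44, 6.46 and 6.43 at dose 0. The treated arrays ran higher with an overlap of 1 value, and the difference of 0.28 ± 0.13 was not called (adjusted p = 0.293). With the sexes averaged, a comparison added after these values were seen, Bak1 rose by 0.35 ± 0.09 on day 7 (adjusted p = 0.00543), and this difference was 0.24 (adjusted p = 0.0559) without the dose 0 male array that stood apart. That call was also lost with the mean of both probe sets (0.18, adjusted p = 0.0774) and in a fit of the compared groups alone (adjusted p = 0.0927). On day 2 the Bak1 differences were 0.06 in males and 0.24 in females, neither called.

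The BH3-only gene Bmf had the largest differences of the 10 in day 2 livers of both sexes. In female day 2 livers Bmf had 5.36, 5.27, 6.11 and 5.43 at 150 mg/kg-day, against 7.12, 6.89, 6.42 and 7.11 at dose 0. No treated array reached the lowest dose 0 value, and 10.1% of all genes had groups without overlap in this comparison. The means were 5.54 ± 0.39 at 150 mg/kg-day and 6.88 ± 0.33 at dose 0 (SD, n = 4 each), so Bmf fell by 1.34 ± 0.36 (SE) on the log2 scale, 2.53-fold lower (95% interval of the difference -2.05 to -0.63, adjusted p = 0.0104). The call held in 7 of 8 fits that left out 1 array and was lost without treated replicate 2 (adjusted p = 0.0538). With the mean of all 3 Bmf probe sets the difference was -0.54 (adjusted p = 0.0526).

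In male day 2 livers Bmf had 4.80, 5.20, 5.05 and 5.25 at 150 mg/kg-day, against 4.90, 6.48, 6.99 and 6.30 at dose 0. The treated arrays were all low and close together, and 1 of the 4 dose 0 arrays was as low as they were. The difference of -1.09 ± 0.36 missed the threshold (adjusted p = 0.0577). It was -1.51 (adjusted p = 0.00633) without that dose 0 array, replicate 1. That array was picked for its low Bmf value, so the fit without it is no support for a call. Over all genes its deviations had an SD of 0.166, against the median of 0.169. Treated male livers of day 2 had the lowest Bmf mean of the 24 groups, 5.08. With the sexes averaged, a comparison added after these values were seen, Bmf fell by 1.22 ± 0.25 on day 2, 2.32-fold lower (adjusted p = 0.000217). In that comparison 12.1% of all genes were called and 6.72% were called lower. Bmf remained called there under all 23 alternatives, including each of the 16 fits without 1 array.

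On day 7 Bmf was nearer to its dose 0 level. In male day 7 livers Bmf had 6.13, 5.94, 6.39 and 6.44 at 150 mg/kg-day, against 6.54, 6.69, 6.63 and 7.01 at dose 0. The groups did not overlap, which 8.01% of all genes shared, and the difference of -0.49 was not called (adjusted p = 0.573). In female day 7 livers Bmf had 7.75, 7.39, 6.63 and 7.22 at 150 mg/kg-day, against 7.82, 6.87, 7.71 and 7.99 at dose 0, and the groups overlapped (difference -0.35, adjusted p = 0.753). The second brightest Bmf probe set went the other way on day 7, by 0.45 in males and 0.34 in females. The dimmest differed by 0.0032 in males and -0.13 in females, and neither probe set was called. The test of the difference itself, day 7 response minus day 2 response, gave 0.60 in males (adjusted p = 0.779) and 0.99 in females (95% interval -0.01 to 1.99, adjusted p = 0.627), so a change of response between the days was not established.

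Over the 6 doses Bmf had no even course, as the plot of single arrays by dose shows. In female day 2 livers its means were 6.88 at dose 0, 6.02 at 0.15, 6.49 at 1.5, 6.65 at 15, 6.18 at 75 and 5.54 at 150 mg/kg-day. The second lowest mean thus stood at the lowest dose above 0, where the difference was not called. In male day 2 livers the means were 6.17, 6.22, 6.53, 6.05, 5.77 and 5.08 in the same order of doses. A linear trend over the 6 doses in order, per dose step, was called in males on day 2 (-0.21 ± 0.06, adjusted p = 0.0206) and missed the threshold in females (-0.17 ± 0.06, adjusted p = 0.0568). The male call was lost in 4 of 24 fits without 1 array, those without dose 0 replicate 2 or 3, 75 mg/kg-day replicate 4 or 150 mg/kg-day replicate 1 (adjusted p up to 0.105). It was also lost with the mean of all 3 probe sets (-0.08, adjusted p = 0.0862) and in a fit of the compared groups alone (adjusted p = 0.0615).

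**Figure D2:**
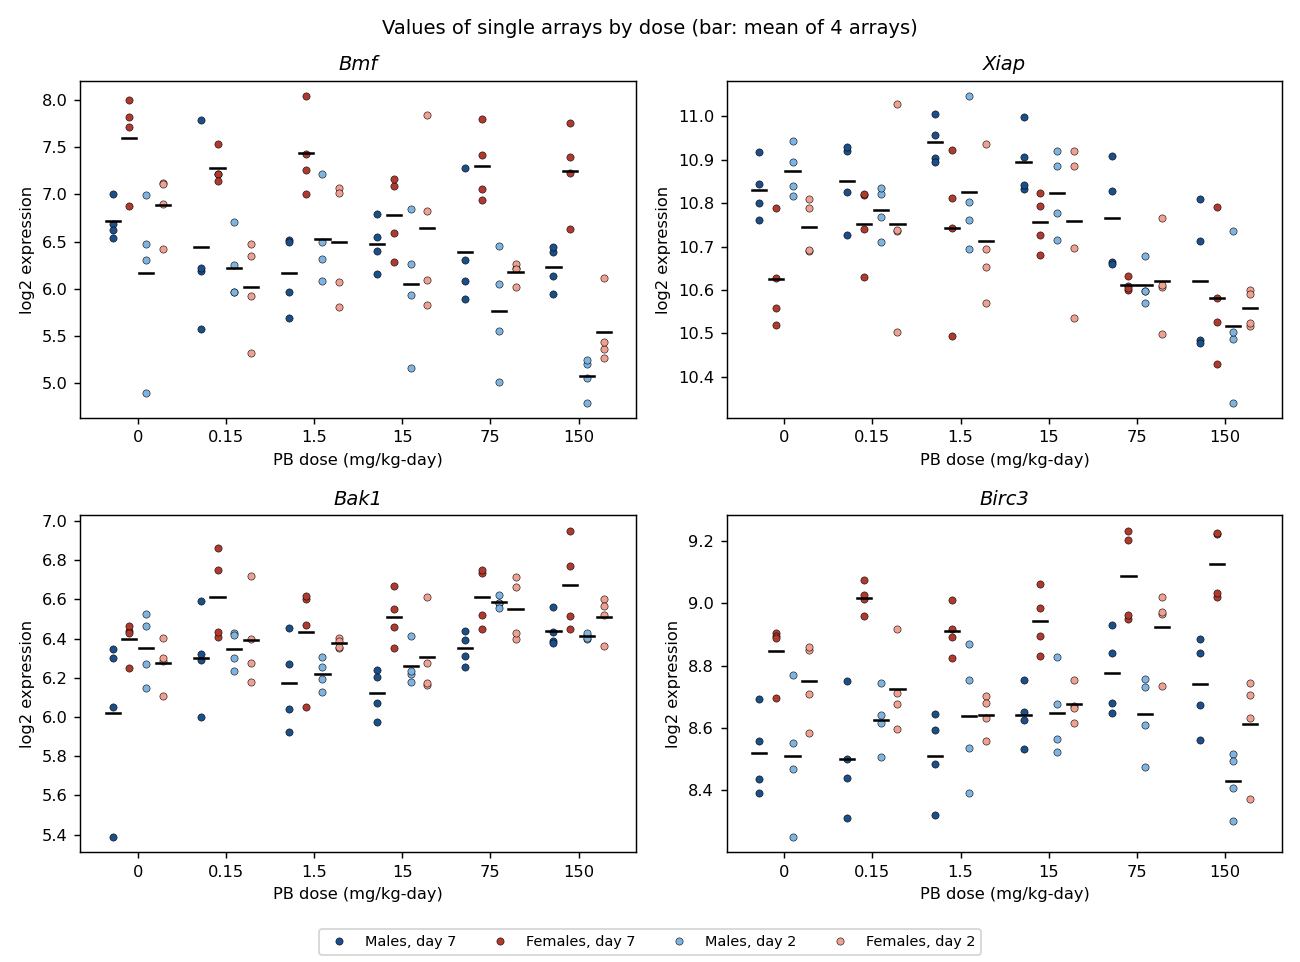
Log2 values of single arrays for Bmf, Xiap, Bak1 and Birc3 at the 6 doses of PB, in colours by sex and day, with bars at the means of 4 arrays. The day 2 arrays at 150 mg/kg-day are among the lowest of the Bmf and Xiap panels; the single low Bak1 point at 5.39 is the male dose 0 day 7 array that stood apart.

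Bmf had other features than its response. Its mean was higher in female than in male livers at dose 0 on day 7, at 6.72 ± 0.20 in males and 7.60 ± 0.50 in females (SD, n = 4 each; male minus female -0.88, adjusted p = 0.135). Its within-group SD, 0.52, was the largest of the 10 genes, against a median of 0.15 over all genes. Across the 24 group means the genes most like Bmf were Daam1 (r = 0.92), Cxcl12 (r = 0.90), which encodes a chemokine, and Hlf (r = 0.90), a transcription factor with a daily rhythm. These are descriptions over means that share arrays, dose 0 groups and sexes.

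The other BH3-only genes were not called in any comparison. At 150 mg/kg-day Bid, the link from death receptors to mitochondria, differed by 0.28 in males and -0.01 in females on day 7. On day 2 it differed by -0.20 in males and -0.29 in females, and all these groups overlapped. Its differences were larger in female day 2 livers at 15 mg/kg-day (-0.64, unadjusted p = 0.00054, adjusted p = 0.771 by limma). At 0.15 mg/kg-day there the difference was -0.61 (unadjusted p = 0.00084, adjusted p = 0.378), and neither was called. Bcl2l11, which encodes the broadly acting BIM, differed by no more than 0.20 in either direction at 150 mg/kg-day. Bik, named for its interaction with the guards, had positive differences on day 7. In male day 7 livers Bik had 8.43, 8.29, 8.63 and 7.83 at 150 mg/kg-day, against 7.92, 7.46, 7.86 and 7.82 at dose 0. Of the 4 treated arrays, 3 exceeded every dose 0 array. The difference of 0.53 had a 95% interval of -0.13 to 1.19 (adjusted p = 0.477), and in female day 7 livers it was 0.41 (adjusted p = 0.656). All 3 Bik probe sets had positive differences on day 7 in both sexes, between 0.41 and 0.84, and none was called.

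Xiap, the direct caspase inhibitor, was lower in male day 2 livers. Xiap had 10.49, 10.34, 10.74 and 10.50 at 150 mg/kg-day, against 10.84, 10.94, 10.82 and 10.89 at dose 0. The treated arrays lay wholly below the dose 0 arrays, as did those of Bmf in female livers, and 10.2% of all genes had groups without overlap in this comparison. The means were 10.52 ± 0.16 at 150 mg/kg-day and 10.87 ± 0.06 at dose 0 (SD, n = 4 each), so Xiap fell by 0.36 ± 0.08 (SE) on the log2 scale, 1.28-fold lower (adjusted p = 0.00407), and the call held in 8 of 8 fits without 1 array. It rests on the probe set with the highest mean: with the mean of all 7 Xiap probe sets the difference was 0.07 (adjusted p = 0.884). A fit of the compared groups alone gave an adjusted p of 0.0758.

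In female day 2 livers Xiap had 10.52, 10.53, 10.60 and 10.59 at 150 mg/kg-day, against 10.69, 10.79, 10.69 and 10.81 at dose 0. The groups again did not overlap, which 10.1% of all genes shared, with a smaller difference of -0.19 (adjusted p = 0.238). Between the sexes the responses on day 2 differed by -0.17 (male minus female, 95% interval -0.41 to 0.07), which was not called. With the sexes averaged Xiap fell by 0.27 ± 0.06 on day 2, 1.21-fold lower (adjusted p = 0.000564), and Bcl2l1 fell by 0.16 ± 0.05 (adjusted p = 0.0389), so that 3 of 10 genes were lower, against 12.1% of all genes called in either direction and 6.72% called lower. The Bcl2l1 call was held in 11 of 23 alternatives, and it was lost without female dose 0 replicate 1 or 3, female treated replicate 1, 2 or 3, male dose 0 replicate 2 or 3, or male treated replicate 1 or 2 (adjusted p up to 0.173), with quantile normalization (adjusted p = 0.116) or in a fit of the compared groups alone (adjusted p = 0.139). With the mean of all probe sets the averaged differences were 0.06 for Xiap (adjusted p = 0.787) and 0.02 for Bcl2l1 (adjusted p = 0.870), neither called.

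In male day 2 livers at 75 mg/kg-day Xiap had 10.68, 10.60, 10.57 and 10.60, with a difference from dose 0 of -0.26 that was not called (adjusted p = 0.191). The trend over the 6 doses in male day 2 livers was called for Xiap (-0.07 ± 0.01 per dose step, adjusted p = 0.000941) and lost with the mean of all 7 probe sets (-0.0028, adjusted p = 0.979). By the brightest probe sets, Bmf and Xiap, 2 of 10 genes, had a called trend there, both downward, against 6.04% of all genes called and 2.91% called downward. On day 7 the Xiap differences at 150 mg/kg-day were -0.21 in males (adjusted p = 0.181) and -0.04 in females (adjusted p = 0.901). The genes most like Xiap over the 24 group means were Tedc2 (r = 0.89), Ipo8 (r = 0.89) and Prkce (r = 0.88).

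Birc3, the NF-kB-linked inhibitor, ran the other way on day 7. In female day 7 livers Birc3 had 9.22, 9.02, 9.03 and 9.23 at 150 mg/kg-day, against 8.90, 8.69, 8.90 and 8.89 at dose 0. The groups did not overlap, which 8.65% of all genes shared, and the difference of 0.28 ± 0.09 was not called (adjusted p = 0.102). In male day 7 livers Birc3 had 8.56, 8.84, 8.67 and 8.88 at 150 mg/kg-day, against 8.69, 8.56, 8.44 and 8.39 at dose 0. Those groups overlapped, with a difference of 0.22 ± 0.09 (adjusted p = 0.214).

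The upward trend of Birc3 over the 6 doses in male day 7 livers was called (0.06 ± 0.02 per dose step, adjusted p = 0.0150), the 1 called trend among the 10 genes there, against 4.46% of all genes called and 3.07% called upward. It was lost without the dose 0 array that stood apart (adjusted p = 0.0604), or without treated replicate 2 (adjusted p = 0.0600) or 4 (adjusted p = 0.0556), with the mean of both probe sets (0.02, adjusted p = 0.532) and in a fit of the compared groups alone (adjusted p = 0.0525). Its size per step stayed between 0.05 and 0.07 in the 24 fits without 1 array. The Bak1 trend there (0.06 ± 0.02, adjusted p = 0.0761) was called without 0.15 mg/kg-day replicate 2 or dose 0 replicate 1 or 2, and the Bcl2l1 trend (-0.03 ± 0.01, adjusted p = 0.169) without dose 0 replicate 1. The male means were 8.52 at dose 0, and 8.50, 8.51, 8.64, 8.78 and 8.74 at the 5 doses above 0 from low to high. With the sexes averaged, Birc3 rose by 0.25 ± 0.07 on day 7 at 150 mg/kg-day (adjusted p = 0.00775). The second, dimmer Birc3 probe set differed by -0.15 in males and -0.0032 in females on day 7, and with the mean of both the averaged difference was 0.09 and not called (adjusted p = 0.353). By the brightest probe sets, Bak1 and Birc3, 2 of 10 genes, were higher with the sexes averaged, against 8.66% of all genes called in either direction and 5.17% called higher.

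Birc3 was also the 1 gene of the 10 that differed between the sexes at dose 0. On day 7 it was 8.52 ± 0.13 in male and 8.85 ± 0.10 in female livers (SD, n = 4 each; male minus female -0.33 ± 0.09 SE, adjusted p = 0.0192), against 6.71% of all genes called and 4.63% called lower in males. The call was lost in 5 of 8 fits without 1 array, which were those without female replicate 1, 3 or 4 or without male replicate 3 or 4, with adjusted p up to 0.0987. It was also lost with the mean of both probe sets (-0.13, adjusted p = 0.370) and in a fit of the compared groups alone (adjusted p = 0.0822). On day 2 the difference was -0.24 (adjusted p = 0.216), and 0 of 10 genes were called, against 2.06% of all genes, where Bmf and Birc3 had an unadjusted p under 0.05, as had 11.8% of all genes. Bak1 was at 6.02 ± 0.44 in male and 6.40 ± 0.10 in female dose 0 livers on day 7 (male minus female -0.37, adjusted p = 0.0556), and this difference was -0.16 (adjusted p = 0.598) without the male array that stood apart and was called without male replicate 1 or 2.

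No gene of the 10 was called by limma at 75, 15, 1.5 or 0.15 mg/kg-day in either sex on either day, 0 of 160 tests, against 0.125% over all genes in the same 16 comparisons. An unadjusted p under 0.05 was found in 15 of the 160, against 6.34%. At 75 mg/kg-day 45 genes were called in male and 139 in female livers on day 7, 0.247% and 0.764% of all genes, and 80 in male and 82 in female livers on day 2, 0.440% and 0.451%. The smallest adjusted p of the 10 genes below 150 mg/kg-day was that of Xiap in male day 2 livers at 75 mg/kg-day, given above. In the trends, 0 of 10 genes were called in females on day 7, against 4.35% of all genes, and 0 of 10 on day 2, against 8.73%; 2 of the 10 trends on day 7 and 4 on day 2 had an unadjusted p under 0.05, against 16.5% and 20.1% of all genes. The female day 2 count was 3, with Bmf, Bcl2l1 and Xiap, when 0.15 mg/kg-day replicate 1 was left out.

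**Figure D3:**
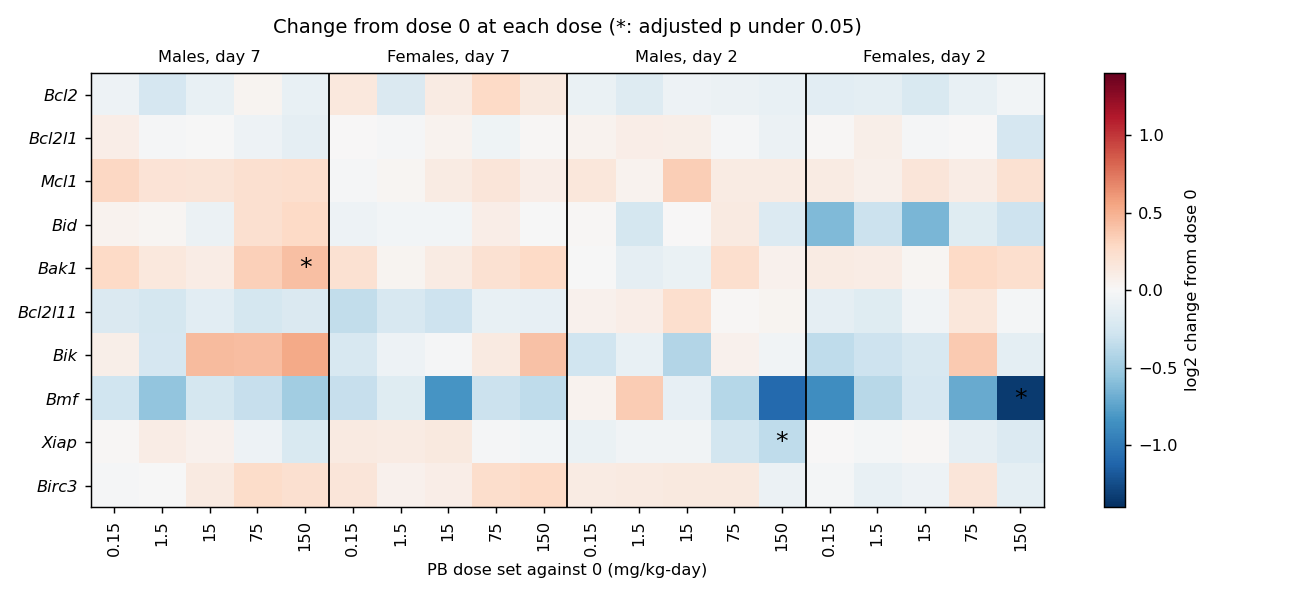
Log2 change from dose 0 of each of the 10 genes at each dose, in colour from blue (lower) to red (higher), in 4 blocks by sex and day (n = 4 arrays per group). The stars mark the 3 calls, all at 150 mg/kg-day; the darkest blue cells are Bmf at 150 mg/kg-day on day 2.

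In limma's tests of differences between responses, none of the 10 genes was called. Between the sexes the share of all genes called was 0.0879% on day 7 and 0.00550% on day 2, with 0 of the 10 genes at an unadjusted p under 0.05 on either day (4.63% of all genes on day 7 and 3.58% on day 2). Between day 7 and day 2 the share was 0.132% in males and 0.874% in females, with 2 of 10 genes at an unadjusted p under 0.05 in each sex, Bak1 and Birc3 in males and Bcl2l1 and Birc3 in females (9.35% of all genes in males and 8.16% in females). In females the Birc3 response was 0.42 higher on day 7 than on day 2 (95% interval 0.15 to 0.68, adjusted p = 0.160).

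The probe sets of a gene did not always move together, as the plot of all 40 probe sets shows. In male day 2 livers the 6 other Xiap probe sets, with means over all arrays from 3.33 to 8.21, differed by -0.44 to 0.51, and 5 of them had a difference above 0. The other Bmf probe sets were lower too, by less: -0.18 and -0.11 in males and -0.23 and -0.03 in females on day 2, none called. The second Bak1 probe set differed by 0.04 in male day 7 livers. The results for these genes therefore belong to the probe set with the highest signal.

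**Figure D4:**
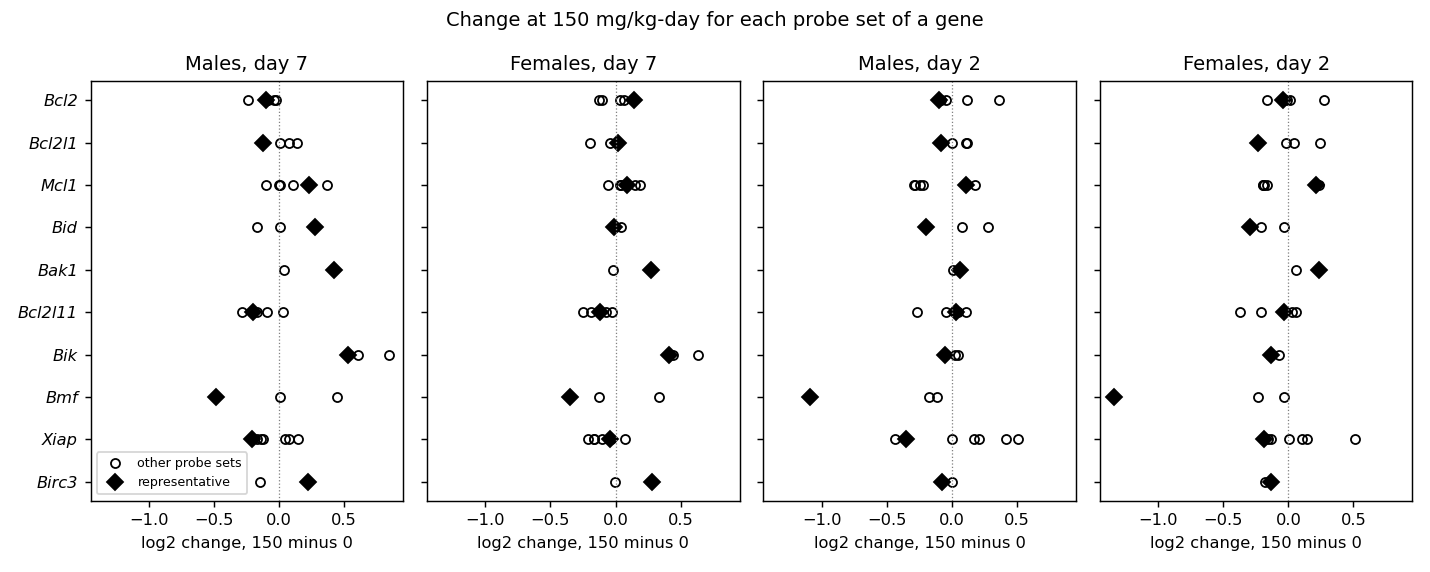
Log2 change at 150 mg/kg-day minus dose 0 for every probe set of the 10 genes, with the probe set that represents each gene filled and the others open, in 4 panels by sex and day. The filled Bmf diamonds on day 2 (-1.09 in males, -1.34 in females) stand apart from the open circles of the same gene, and the Xiap probe sets lie on both sides of 0.

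Among one another, the 10 genes had correlations over the 24 group means from -0.73 (Bak1 with Xiap) to 0.71 (Bcl2l1 with Xiap). Bcl2l11 with Bmf had 0.71, Bmf with Birc3 0.69 and Bak1 with Birc3 0.69. Genes most like Bak1 over all genes were Pla2g15 (r = 0.90), Tlr1 (r = 0.89), a receptor of innate immune cells, and Niban1 (r = 0.88). These values describe 24 means of arrays that share sexes, days and dose 0 groups.

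Of 80 other genes of the pathway in 5 lists, 68 were measured, and at 150 mg/kg-day 4 rose and 0 fell in males on day 7, 2 rose and 0 fell in females on day 7, 2 rose and 3 fell in males on day 2, and 1 rose and 0 fell in females on day 2. Those counts are 5.88%, 2.94%, 7.35% and 1.47% of the measured genes, beside 3.04%, 2.45%, 4.90% and 5.46% of all genes. Of 13 measured further BCL2 family genes, 1 was called in any of the 4 comparisons: Bok, a relative of Bak1, fell by 0.43 in male day 2 livers (adjusted p = 0.0304). Bax, the partner of Bak1, was on the list of these further genes and was not among those called. Its values are not reported here.

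Of 11 measured further inhibitors and their antagonists, Birc5 rose on day 2 in both sexes. Birc5, which encodes survivin, is best known for its part in chromosome segregation and also stands in the list of cell division genes. It averaged 8.19 at 150 mg/kg-day and 4.73 at dose 0 in male livers, a difference of 3.46 (adjusted p = 8.38e-06), and 8.69 at 150 mg/kg-day and 5.24 at dose 0 in female livers, a difference of 3.45 (adjusted p = 4.66e-06). Diablo, which encodes the Smac protein that releases caspases from Xiap, fell by 0.24 in male day 2 livers (adjusted p = 0.0359). Xaf1, an interferon-inducible binding partner of Xiap, rose 3.06-fold in male day 7 livers (adjusted p = 0.00110).

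Of 15 measured caspase and apoptosome genes, Dffb, a nuclease of apoptotic DNA cleavage, fell by 0.36 in male day 2 livers (adjusted p = 0.0401), and Endog, a mitochondrial nuclease, rose by 0.31 in female day 7 livers (adjusted p = 0.0328). Of 17 measured death receptor genes, the receptor gene Fas rose 1.59-fold (adjusted p = 0.0278) and the ligand gene Tnfsf10 (TRAIL) rose 1.66-fold (adjusted p = 0.0347) in male day 7 livers. Of 13 measured NF-kB-responsive genes, Tnfaip3, a brake on NF-kB, rose 1.68-fold in male day 7 livers (adjusted p = 0.00321). Tnfaip2 rose by 0.56 in female day 7 livers (adjusted p = 0.0125) and by 0.44 in male day 2 livers (adjusted p = 0.0477). The median change of the NF-kB-responsive list was 0.32 in males and 0.19 in females on day 7, against 0.04 in males and -0.04 in females on day 2. The male day 7 calls of Xaf1, Fas, Tnfsf10 and Tnfaip3 use the dose 0 group with the array that stood apart. The same is true of the male day 7 cell markers below. For these genes, fits without that array are not reported here.

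Markers of other cells moved with some of these results. In male day 7 livers, where Bak1 was called, 3 of 10 Kupffer cell and macrophage markers rose, Mpeg1, Cd5l and Adgre1. The summed level of the 10 markers on the linear scale was 9377 to 15243 at 150 mg/kg-day and 5142 to 8287 at dose 0. In female day 7 livers 0 of 10 were called, with sums of 9169 to 13651 at 150 mg/kg-day and 8186 to 9438 at dose 0. No marker was at or below the lower quartile of the arrays in these groups. Their part in the Bak1 and Birc3 values was not tested.

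In male day 2 livers, where Xiap was called, 2 of 10 endothelial markers fell, Clec4g and Tek, and the sum of the 10 was 4059 to 4248 at 150 mg/kg-day and 4586 to 5302 at dose 0. In female day 2 livers, where Bmf was called, 2 of 10 fell, Stab2 and Clec4g, and the sums overlapped, at 4100 to 5352 with 150 mg/kg-day and 4777 to 5802 at dose 0. Of the 10 Kupffer cell and macrophage markers 0 were called on day 2, with median changes of -0.39 in males and -0.03 in females. Their male day 2 sums overlapped, at 6162 to 8051.5 with 150 mg/kg-day and 7037 to 16868.5 at dose 0. On day 2, 11 of 11 measured cell division genes rose in both sexes, with median changes of 2.13 in males and 2.59 in females, whereas 0 of 11 were called on day 7. Of 9 hepatocyte markers, 1 was called lower in male day 2, female day 2 and female day 7 livers each, by no more than 0.20. Their sums in male day 2 livers were 146073 to 146897 at 150 mg/kg-day and 150829 to 153272 at dose 0. In female livers they were 142651 to 146852 against 148204 to 154934 on day 2, and 141385 to 144494 against 149073 to 151293 on day 7. The male day 7 sums overlapped, at 140188 to 148688 against 147850 to 153341. The part of these shifts in the Bmf and Xiap values was not tested. Of the other marker lists, 3 of 8 stellate cell markers fell in male day 7 livers (Hand2, Lrat and Reln) and Hand2 alone fell on day 2 in both sexes. Of 8 neutrophil markers, S100a8 rose 9.33-fold in male day 7 and 7.12-fold in female day 2 livers by the group means, and Elane fell by 0.34 in female day 7 livers. The median change of the 8 markers was 0.11 in male day 7 and -0.14 in female day 2 livers, so S100a8 does not speak for the list. The neutrophil sums overlapped in male day 7 livers, at 395 to 7935 with 150 mg/kg-day and 351 to 651 at dose 0. In female day 2 livers they were 972 to 2176 with 150 mg/kg-day and 391 to 954 at dose 0. None of 5 cholangiocyte, 8 T or NK cell and 7 B cell markers was called by limma.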

How the data were processed

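Total liver RNA, extracted with Trizol and biotin-labelled per the labels' protocols, was measured on 96 arrays. The authors deposited a table of log2 values, already on a common scale between arrays; the labels and the table name no normalization method. Of 45101 probe sets, 64 controls were left out, 34945 had 1 gene symbol in the array annotation, 932 had several and 9160 had none. Of several probe sets for a gene, the one of highest average signal was used, which gave 18193 genes.

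Sex, dose and day in the titles gave 24 groups of 4. Group means were fitted on the 96 arrays together by limma, version 3.58.1 (R 4.3.3; 72 residual and 4.39 prior degrees of freedom), followed by contrasts of each dose with 0, a linear trend over dose order, differences of response, and sex at dose 0. All tests were two-sided. P-values were adjusted over 18193 genes by the Benjamini-Hochberg method, with a threshold of 0.05. Intervals are 95%. In data simulated for the male day 2 contrast of 150 with 0, 17 of 50 genes changed 1.25-fold, 44 of 50 changed 1.5-fold, 50 of 50 changed 2-fold and 49 of 50 changed 3-fold were recovered among 18193, with 4 false calls of 164. The changed genes were drawn from all 18193, with independent normal noise. These rates therefore do not apply to genes of larger within-group SD, such as Bmf (0.52), Bik (0.48) and Bcl2l11 (0.30), against a median of 0.15.

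The members and gene lists were chosen with earlier results of these data known. Named genes are all 10 members, the 3 genes most correlated with each member called at 150, and called genes of the fixed lists, at most 4 per list and comparison. The lists for cholangiocytes, neutrophils, stellate cells, T or NK cells and B cells were run as well. Alternatives changed the probe set rule, a filter on dim genes, quantile normalization, the prior, a replicate block, and the arrays used. Promoter windows and gene positions come from RefSeq on GRCm38.p6.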

Additional observations from a re-analysis of the deposited data

Results flagged for a closer look

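Each of the 10 genes was tested in each of the 24 groups of 4 arrays for a single value far from the other 3 by Dixon's ratio, and 8 of these 240 tests passed its 95% critical value; chance alone gives about 1 in 20. For Mcl1, female 1.5 mg/kg-day day 7 replicate 1 had 9.98 against 10.42 to 10.50 in the other arrays, male 0.15 mg/kg-day day 7 replicate 2 had 10.70 against 10.30 to 10.33, and male 150 mg/kg-day day 2 replicate 1 had 10.30 against 10.09 to 10.12. For Bcl2l11, female 0.15 mg/kg-day day 2 replicate 1 had 5.89 against 6.84 to 7.00, and male 15 mg/kg-day day 2 replicate 1 had 7.03 against 6.88 to 6.89. For Bcl2l1, male 75 mg/kg-day day 2 replicate 1 had 8.37 against 8.46 to 8.48. In the female dose 0 group of day 7, replicate 1 had 6.25 against 6.43 to 6.46 for Bak1, and replicate 2 had 8.69 against 8.89 to 8.90 for Birc3. The male dose 0 day 7 array on which the Bak1 call rests did not pass this ratio within its group.

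A probe set outside the main measurement also changed. The dimmest of the 6 Mcl1 probe sets, with a mean of 8.62 over all arrays, had 8.80, 8.85, 8.73 and 8.85 at 150 mg/kg-day in male day 7 livers, against 8.54, 8.51, 8.49 and 8.22 at dose 0. The difference was 0.37 (adjusted p = 0.0222 over all named probe sets), against 0.23 for the Mcl1 probe set with the highest mean. The other 4 Mcl1 probe sets differed by -0.10, -0.0013, 0.0093 and 0.11 in the same comparison, and none of them was called.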

How the results depend on the processing

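Counts of the 10 genes called depended on the processing, mostly by 1 gene. The mean of all probe sets of a gene in place of the highest one gave 0 at 150 mg/kg-day in each sex and day, 0 for the trends in males on both days, 0 for the sex difference at dose 0 on day 7, and, with the sexes averaged (a comparison chosen after seeing the data), 1 on day 2 and 0 on day 7. It turned the sign of Xiap in male day 2 livers (0.073), and of Xiap (0.057) and Bcl2l1 (0.021) with the sexes averaged on day 2. The 6 Xiap probe sets other than the brightest had mixed signs, as given above. Leaving out dim genes gave 2 in females and 2 in males on day 2, 2 for the female day 2 trend and 2 for the sex difference on day 7. Quantile normalization gave 1 for the female day 2 trend and 2 for the male day 7 trend. A fit of the compared groups alone gave 0 in males on day 7 and on day 2, 0 for the male day 7 trend, 1 for the male day 2 trend, 0 for the sex difference on day 7 and 1 with the sexes averaged on day 7. Leaving out both arrays that stood apart, also chosen after seeing the data, gave 0 in males on day 7, 2 in females on day 2, 1 for the female day 2 trend, 0 for the male day 7 trend, 0 for the sex difference on day 7 and 1 with the sexes averaged on day 7.

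Leaving out 1 array at a time gave 0 to 1 called genes in males and 0 to 0 in females on day 7 at 150 mg/kg-day, 1 to 2 in males and 0 to 2 in females on day 2, 0 to 3 for the male day 7 and female day 2 trends, 0 to 0 for the female day 7 trend, 1 to 2 for the male day 2 trend, 0 to 2 for the sex difference at dose 0 on day 7, 2 to 3 with the sexes averaged on day 2 and 1 to 2 on day 7. The lower doses, the differences of response and the sex difference on day 2 gave 0 under all alternatives run.

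Arrays with the same replicate number did not deviate together (mean correlation of deviations 0.0013, against -0.00040 between other numbers), so the numbers share only a name. A replicate block gave 2 called genes in females on day 2 at 150 mg/kg-day and 1 for the female day 2 trend, and the same count as without it in every other comparison.

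Counts over all genes moved as well: a fit of the compared groups alone called 146 in place of 553 in males and 257 in place of 445 in females on day 7, and 526 in place of 892 in males and 341 in place of 994 in females on day 2. Leaving out 1 array gave 310 to 617, 244 to 402, 551 to 833 and 601 to 1049 in the same order, with the lowest counts without male treated replicate 1 and female dose 0 replicate 1 on day 7, and without male dose 0 replicate 1 and female treated replicate 2 on day 2.

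Limits: with 4 arrays a group, the 95% interval of a difference was between 0.15 and 0.71 on either side, so small changes in Bmf, Bik or Bcl2l11 were not detectable.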
